A study of Bos taurus with 3 samples.

Results

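The S100 genes encode small calcium-binding proteins, and 9 of them were followed here across the cells of the calf rumen: S100A8, S100A9, S100A12, S100A2, S100A4, S100A10, S100A11, S100A14 and S100A16. They were found by symbol in the gene lists of the count tables, where each symbol occurred once, and they are 9 of 27270 genes. Another 8 S100 genes are in the same tables (S100A1, S100A3, S100A5, S100A7, S100A13, S100B, S100G and S100Z), whereas S100A6 and S100P have no symbol there and were not analysed here.

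The samples were rumen tissue of 3 newborn Holstein calves, taken 1 day after birth from the ventral sac of the rumen, with 1 single-cell library per calf made with 3′ v3 chemistry. The tissue had been stripped of its outer muscle layers and dissociated, and all 3 calves belong to the same group, so every comparison below is between cell classes of the same calves. Libraries of adult cattle were not analysed here. The deposited tables held 7529, 12043 and 11656 barcodes for calves 1, 2 and 3, with 82263092, 89803289 and 106145091 unique molecular identifiers (UMIs).

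S100A8 and S100A9 pair into calprotectin, an antimicrobial complex that holds back zinc and manganese from microbes and that neutrophils and monocytes carry in large amounts. Stratified squamous epithelia such as the lining of the rumen and forestomachs also make calprotectin, above all in cells that have left the basal layer and during inflammation. S100A12 is the third calgranulin and a ligand of the receptor AGER, while the other members are known mainly for work inside the cell, in the nucleus, at the cytoskeleton or on annexins at membranes.

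Barcodes with 500 to 4000 genes numbered 4935, 10737 and 10543, and after limits on UMIs and mitochondrial share 4886, 10654 and 10480 remained. Doublets were scored against simulated ones, and 191, 908 and 879 barcodes were removed as doublets, which left 24042 cells. The median depth of kept cells was 10172, 6456 and 7387 UMIs in calves 1, 2 and 3. Calves 1 and 2 shared 21 barcodes, calves 1 and 3 shared 29, and calves 2 and 3 shared 37.

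Clusters were made without any S100 gene, so that no member could define a layer, and were named from marker lists. Epithelial cells numbered 21123, among them 15393 basal-like, 744 spinous-like and 1121 mitotic-like cells. A further 6 epithelial clusters met no marker list clearly and are called by a leading gene: the larger ones are CXCL3-led (1903 cells), ATP6-led (992 cells, led by mitochondrial genes) and FABP4-led (630 cells). The other classes were 1322 endothelial cells, 461 fibroblasts, 320 myofibroblasts and 815 immune cells, the last with only 10 cells in calf 1, 79 in calf 2 and 726 in calf 3.

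The names were checked against the markers. In basal-like cells the 9 basal markers summed to 213, 213 and 178 UMIs per 10000 in calves 1, 2 and 3, KRT15 being the most abundant, and in spinous-like cells they summed to 61.4, 77.7 and 127. The 9 spinous markers summed to 253, 329 and 59.8 in spinous-like cells, led by KRT4, and to 14.8, 9.09 and 1.77 in basal-like cells. Calf 3 had fewer spinous transcripts than the others: KRTDAP, a keratinocyte differentiation gene, stood at 35.2, 42.2 and 2.16 UMIs per 10000 in the spinous-like cells of calves 1, 2 and 3. The comparison of layers may therefore set different stages of differentiation side by side in different calves. Immune markers were near 0 in spinous-like cells, where the 6 of them summed to 0.0138, 0.0293 and 0.0610 UMIs per 10000, and CSF3R, CXCR2, FCN1 and LYZ were at 0 in every calf. Not all genes known from myeloid cells were absent: CD14 had 0.268, 0.347 and 0.171 UMIs per 10000 there and CTSS 0.169, 0.224 and 0.171. CYBB had 0.0241, 0.0373 and 0.0122, and both CD14 and CYBB were called higher in spinous-like than in basal-like cells. The 8 endothelial markers summed to 60.5, 78.3 and 64.2 in endothelial cells, led by PLVAP, and the 6 immune markers to 38.5, 37.5 and 39.6 in immune cells, led by LAPTM5.

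Myeloid cells were to be those with a UMI of FCN1 or CD14, but that gate did not pick out immune cells by itself. It took 1922 kept barcodes, of which 1630 were epithelial and 81 were in immune clusters, so that 0.753%, 3.69% and 7.28% of the positive barcodes of calves 1, 2 and 3 were immune cells. Among the positive epithelial barcodes, 1618 had CD14 and 14 had FCN1. The gated cells described below are therefore the 81 positive cells of the immune clusters, 5, 16 and 60 in calves 1, 2 and 3. In these cells 9 of 10 myeloid markers had a mean above 0.5 UMIs per 10000, with a sum of 108 in calf 2 and 82.2 in calf 3. FCN1 and CD14 are among the 10 and are fixed by the gate, so they do not bear on the name. C1QA, the most abundant and no part of the gate, had 28.0 and 16.9 UMIs per 10000 in positive and 6.77 and 2.44 in negative immune cells. The 4 neutrophil markers in the tables summed to 0.516 and 0.517 UMIs per 10000 there, with CXCR2 and MMP9 at 0, so the gated cells were not marked as neutrophils.

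A level is a gene's UMIs for every 10000 UMIs, after adding up all cells that a calf has in a class. Counts of 3′ UMIs do not scale with transcript length, and levels of different genes are set side by side here on that basis. Whether the genes differ in capture or in the annotation of their 3′ ends was not tested. Cells of a calf are not replicates: means and tests are over calves (n = 3), and the tests used counts summed per calf and class in edgeR with the calf as a block and adjusted p under 0.05 over all genes tested. The tests rescale the sums (TMM) and the levels do not. A log2 difference can therefore depart from the printed levels, for small differences even in sign.

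Moving from the basal-like to the spinous-like layer, the calgranulins rose most among the members and S100A4 fell. S100A8, the calprotectin chain with more UMIs here, had 2.32, 1.72 and 1.78 UMIs per 10000 in the basal-like cells of calves 1, 2 and 3 and 49.4, 113 and 30.8 in their spinous-like cells. Every calf's spinous-like value lay above every basal-like value, and calf 2 was the highest of the spinous-like values. The log2 difference was 5.02 (SE 0.37, n = 3, adjusted p = 5.44e-06). S100A9, its partner, went from 1.53, 1.27 and 0.715 to 25.3, 67.0 and 17.5 UMIs per 10000, again without overlap and again with calf 2 highest and calf 3 lowest. Its log2 difference was 4.97 (SE 0.32, adjusted p = 1.92e-06).

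S100A12 was the most abundant of the 3 calgranulins in both layers. It had 41.0, 28.4 and 29.5 UMIs per 10000 in basal-like cells and 225, 427 and 177 in spinous-like cells, a log2 difference of 3.15 (SE 0.29, adjusted p = 3.04e-05). The lowest spinous-like value was above the highest basal-like one, and its log2 difference was the smallest of the 3 calgranulins.

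S100A2, a nuclear S100 protein of squamous epithelia, had 30.0, 39.6 and 26.8 UMIs per 10000 in basal-like and 74.6, 66.7 and 75.5 in spinous-like cells (log2 difference 1.37, SE 0.20, adjusted p = 0.000726). S100A4, which binds non-muscle myosin and is often used as a fibroblast marker, went the other way, from 32.0, 17.4 and 19.0 to 7.45, 4.09 and 13.9 UMIs per 10000 (log2 difference -1.38, SE 0.30, adjusted p = 0.00714). It was lower in the spinous-like cells of all 3 calves, least so in calf 3, whose spinous-like cells also had the least KRTDAP.

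S100A14 had 2.70, 1.36 and 0.790 UMIs per 10000 in basal-like and 7.01, 5.88 and 2.85 in spinous-like cells, a log2 difference of 1.96 (SE 0.20, adjusted p = 5.25e-05). The log2 difference was 1.34 for S100A16 (adjusted p = 0.000964) and 0.83 for S100A11, an annexin A1 partner (adjusted p = 0.00927). S100A10, which forms a complex with annexin A2, had 9.06, 8.85 and 7.41 UMIs per 10000 in basal-like and 6.90, 9.19 and 8.62 in spinous-like cells, values that overlapped, and it did not pass (log2 difference 0.14, SE 0.18, adjusted p = 0.627).

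In all, 7 of the 9 members were higher in spinous-like cells, beside 12.8% of the 11743 genes tested, and 1 was lower, beside 14.2%. The members' median log2 difference was 1.37, and that of all genes tested was -0.07. The fall of S100A4 was not called without the block (log2 difference -1.31, adjusted p = 0.0732) or when each calf was clustered alone (log2 difference -0.62, adjusted p = 0.299), where its mean spinous-like level was 17.3 in place of 8.47 UMIs per 10000. Clustered alone, calf 3 had 665 spinous-like and 1646 basal-like cells in place of 165 and 5792. Its layers were then not the same cells. Without the block S100A11, S100A14 and S100A16 were not called either (log2 difference 0.85, 1.89 and 1.31, adjusted p = 0.227, 0.0604 and 0.103).

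**Figure D1:**
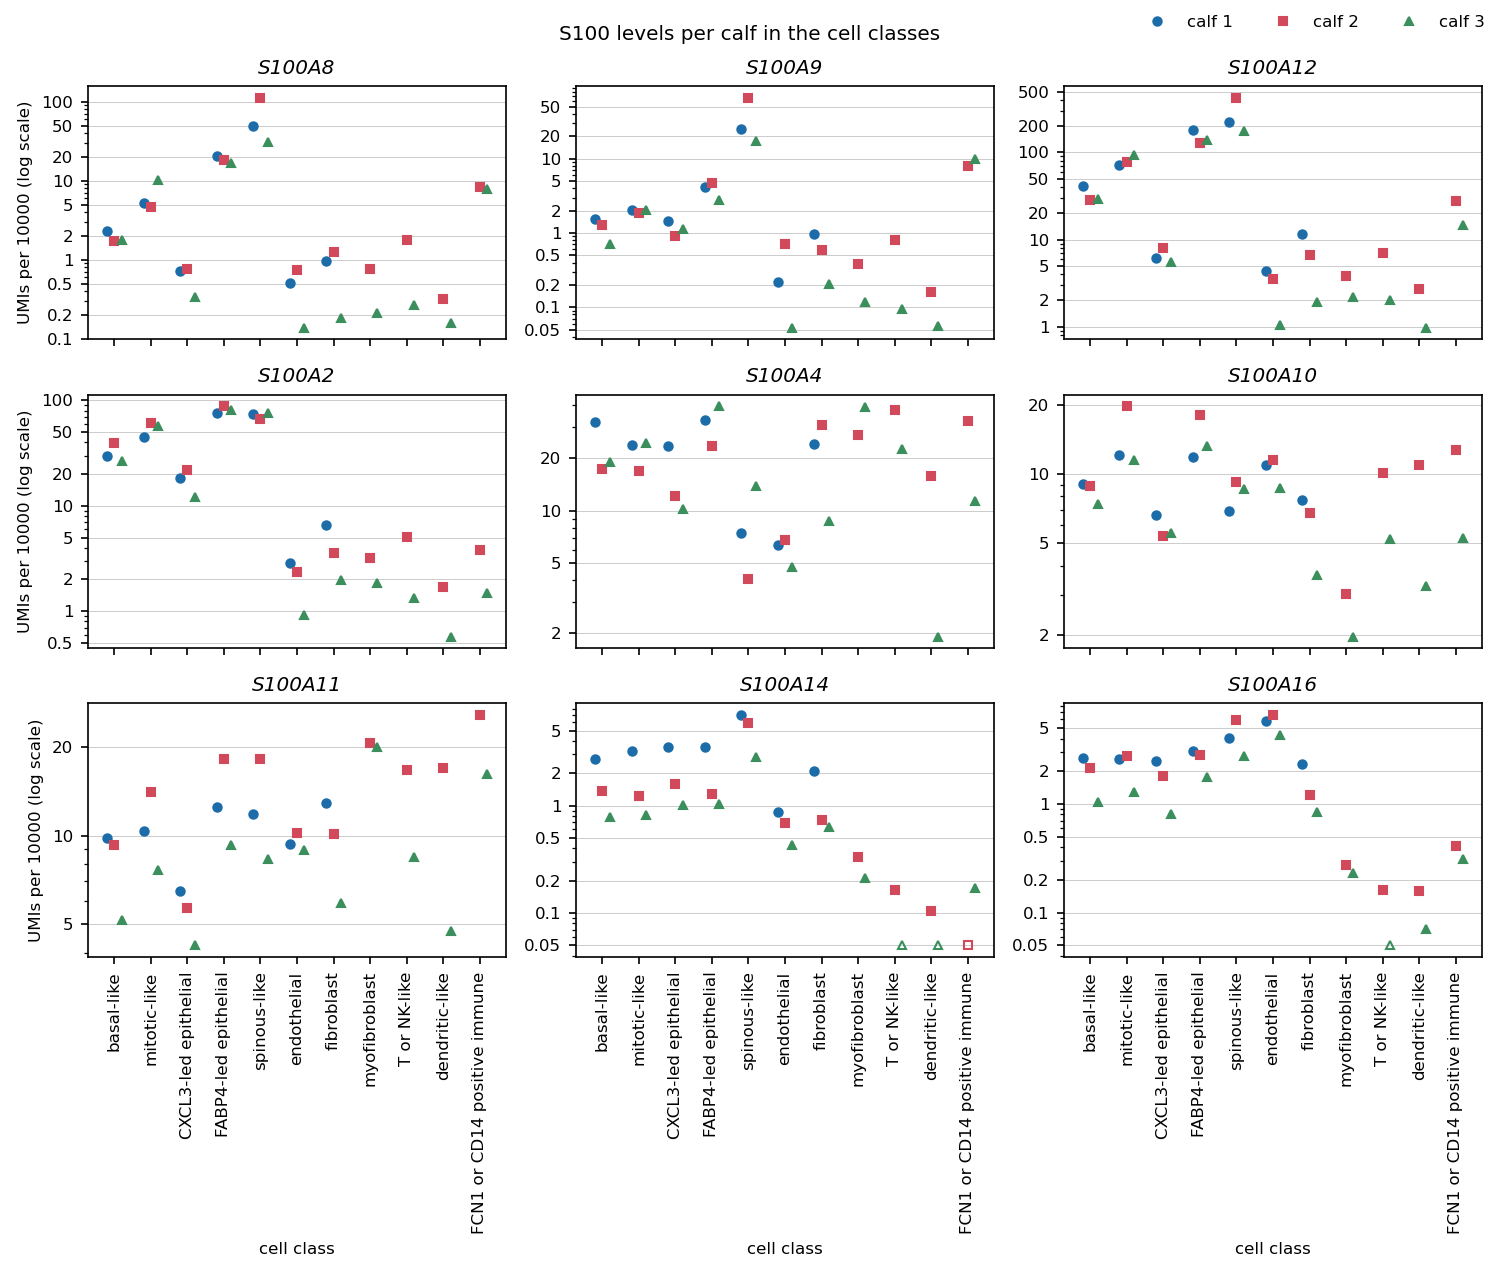
Levels of the 9 S100 genes in UMIs per 10000 (log scale) by cell class, 1 point per calf and class with at least 10 cells; open points mark values under 0.05. Among the classes drawn, S100A8, S100A9 and S100A12 stand highest in the spinous-like cells, while S100A4 is lower there than in basal-like cells.

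Other lists in the same comparison give the surroundings of the members. All 12 genes of epithelial differentiation were higher in spinous-like cells, KRTDAP by a log2 difference of 7.98. This largely restates the naming. KRTDAP, KRT6A, KRT4, SPINK5, A2ML1, SBSN and LYPD3 are also among the markers that named the layer. IVL and TGM1 were in another of the marker lists used for naming epithelial clusters. Of the other S100 genes, 5 of 8 were tested: S100A7, an epidermal antimicrobial protein, was higher (log2 difference 1.82, adjusted p = 0.000674), S100A13 was lower (-2.61, adjusted p = 0.000633) and S100A3, S100A5 and S100B did not pass. CRNN, the only fused-type S100 gene with enough counts among the 3 in the tables, had 0.0757, 0.197 and 0.384 UMIs per 10000 in spinous-like cells and nearly none in basal-like cells (0, 0.00123 and 0.000391), so its test could hardly go the other way and its log2 difference is not given. Of 7 partners, ANXA1, FABP5 and AHNAK were higher (log2 difference 1.47, 2.52 and 0.70) and ANXA6 was lower, and ANXA2, which S100A10 binds, did not pass (adjusted p = 0.992). Of 8 receptors and sensors, 5 had enough counts for a test, and TLR4 and ALCAM were higher while AGER was not called. Of 14 neutrophil and monocyte genes only 5 had enough counts, and CD14 and CYBB were higher (log2 difference 1.65 and 1.83), each under 1 UMI per 10000.

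Among spinous-like and basal-like cells the shares of positive cells were taken after thinning each cell to 2000 UMIs, since depth differs between classes. S100A8 was detected in 21.5%, 16.2% and 13.9% of basal-like cells and in 90.7%, 95.9% and 67.1% of spinous-like cells of calves 1, 2 and 3. S100A9 was detected in 612 of 3056, 907 of 6496 and 510 of 5779 basal-like cells, a mean of 14.3%, and in 64.2%, 88.1% and 51.9% of spinous-like cells. For both genes the spinous-like share exceeded the basal-like share in each calf with exact 95% intervals (Clopper-Pearson) that did not meet; these intervals cover counting error only.

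Endothelial cells, which should lack the calgranulins, were taken as a background for such shares. Whether free RNA, mixed droplets or transcription gave their UMIs was not tested, and in calf 2 single endothelial cells held up to 17 UMIs of S100A8 and 21 of S100A9 among 2000. S100A8 was detected in 6 of 69, 54 of 492 and 9 of 600 endothelial cells thinned in the same way, a mean of 7.06%, and S100A9 in 1.45%, 4.88% and 1.83%. The shares over all basal-like cells were above these in every calf, but the basal-like clusters were unequal: S100A8 had 4.41, 6.14 and 6.86 UMIs per 10000 in the cluster led by UHRF1 and MCM3 and 0.439, 0.517 and 0.193 in the one led by RGS4, PLAC8 and DCN, beside 0.515, 0.745 and 0.137 in endothelial cells. The largest basal-like cluster, of 3278 cells, had 0.810, 0.635 and 0.320. A cluster of 1636 cells led by RGS4, PLAC8 and IFI6 had 0.484, 0.569 and 0.186. Clusters led by TM4SF1, by LY6D and by UHRF1 were above the endothelial level in each calf. The median depth before thinning was 10374.5, 6682 and 7968 UMIs in basal-like, 13363.5, 8638 and 9329 in spinous-like and 4143.5, 3599 and 4282.5 in endothelial cells. Without thinning, S100A8 was detected in 53.3%, 38.9% and 31.6% of basal-like, 97.7%, 99.4% and 87.3% of spinous-like and 23.1%, 16.2% and 5.23% of endothelial cells. The mean share in basal-like cells was 41.3% for S100A8, 39.3% for S100A9, 61.7% for S100A14 and 70.7% for S100A16 without thinning, beside 17.2%, 14.3%, 25.9% and 30.0% with it. In the thinned cells, a threshold of at least 2 UMIs in place of 1 gave 5.84%, 3.02%, 5.56% and 6.25%.

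S100A12 had a higher background. It was detected in 47.8%, 43.5% and 18.8% of endothelial cells after thinning, beside 79.4%, 77.2% and 69.9% of basal-like cells. In spinous-like cells it was detected in all 215 thinned cells of calf 1, all 319 of calf 2 and 157 of 158 in calf 3. Even so the endothelial level was 4.36, 3.52 and 1.04 UMIs per 10000, less than every value of the basal-like class as a whole. The basal-like cluster led by RGS4, PLAC8 and DCN had 3.61, 4.48 and 3.39. That was below the endothelial level in calf 1 and above it in calves 2 and 3.

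Shares of S100A2 told the layers apart poorly, since 95.9%, 96.8% and 89.9% of basal-like and 95.8%, 94.7% and 99.4% of spinous-like cells had it, against 44.9%, 33.5% and 16.5% of endothelial cells. S100A4 was detected in 95.8%, 82.1% and 83.3% of basal-like cells and in 57.2%, 38.9% and 72.8% of spinous-like cells, which in calf 2 is close to the 37.8% of endothelial cells. S100A14 was detected in 39.6%, 23.1% and 15.0% of basal-like and in 72.6%, 61.1% and 34.2% of spinous-like cells, beside 5.80%, 14.8% and 8.83% of endothelial cells. Mean shares of S100A10, S100A11 and S100A16 in basal-like cells were 75.6%, 69.2% and 30.0%, and each had a higher mean share in endothelial cells, at 85.8%, 81.4% and 63.8%.

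Within spinous-like cells the calgranulins were spread unevenly. The median thinned cell held 5, 15 and 2 UMIs of S100A8 in calves 1, 2 and 3, and the highest held 71, 91 and 85. For S100A9 the medians were 1, 5 and 1 and the highest 73, 94 and 87. S100A12 had medians of 34, 73 and 24.5 UMIs. Spinous-like cells were few, at 4.73%, 3.66% and 1.72% of the kept cells of the 3 calves, yet they held 47.1%, 70.1% and 20.9% of the S100A8 UMIs, 47.6%, 72.5% and 30.4% of the S100A9 UMIs and 21.9%, 42.1% and 10.8% of the S100A12 UMIs. Of the S100A8 UMIs, basal-like, FABP4-led and mitotic-like cells held means of 25.8%, 13.6% and 11.9%. By calf, basal-like cells held 26.0%, 13.8% and 37.6% of the S100A8 UMIs and 33.8%, 17.8% and 38.7% of the S100A9 UMIs. For both genes this was more than spinous-like cells held in calf 3 and less in calves 1 and 2. Of the S100A12 UMIs, basal-like cells held 46.9%, 36.4% and 56.2%, more than spinous-like cells in calves 1 and 3.

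A grouping of epithelial cells by KRTDAP itself, chosen after the clusters were seen, gave a finer scale than the 2 layers. In cells with no KRTDAP UMI among 2000, S100A8 stood at 3.08, 2.75 and 3.16 UMIs per 10000 in calves 1, 2 and 3. It was 9.73, 12.2 and 25.3 in cells with 1 KRTDAP UMI, and 31.5, 86.0 and 109.6 in cells with 2 to 9. In cells with 10 to 49, too few in calf 3, it was 118 and 189 in calves 1 and 2. S100A8 was thus higher at each step in each calf, and calf 3, the lowest by cluster, was the highest at equal KRTDAP, although with only 10 cells at 2 to 9 UMIs.

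S100A9 followed the same order with a steeper last step in calf 1, from 7.56 to 75.4 UMIs per 10000. S100A12 went from 46.8, 34.3 and 38.1 in cells without KRTDAP to 402 and 593 in the top group of calves 1 and 2. S100A2 turned: it went from 33.1, 41.6 and 30.3 to 79.6, 75.0 and 85.0 at 2 to 9 KRTDAP UMIs and was 31.9 and 34.9 in the top group of calves 1 and 2. S100A4 was lower at each step, from 29.7, 16.9 and 19.1 without KRTDAP to 1.54 and 1.78 in the top group. S100A14 and S100A16 were higher at each step in each calf, S100A14 from 2.88 to 7.56 UMIs per 10000 in calf 1. Cells with more KRTDAP thus had more of the 3 calgranulins and less S100A4, and in calves 1 and 2 S100A2 was highest between the ends.

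**Figure D2:**
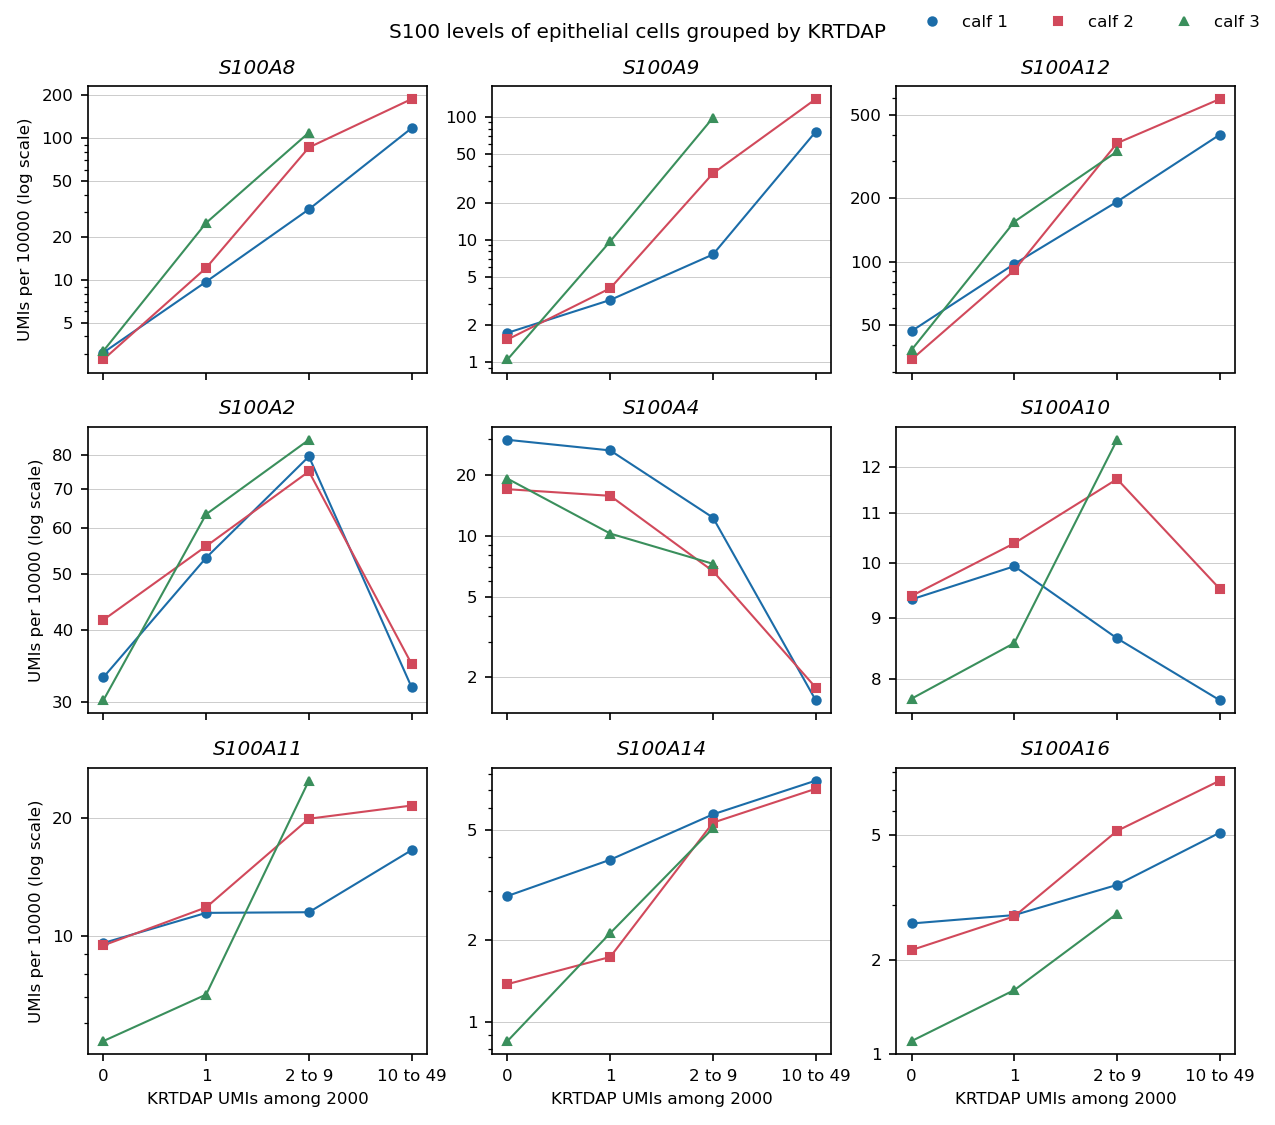
Levels of the 9 S100 genes in UMIs per 10000 (log scale) in epithelial cells grouped by their KRTDAP UMIs among 2000, 1 line per calf, for groups of at least 10 cells. The calgranulins are higher at every step, S100A4 is lower, and S100A2 is highest at 2 to 9 KRTDAP UMIs.

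Outside the spinous-like cells the calgranulins were not even over the epithelium. Over the epithelial classes given here the mean S100A8 level, from high to low, was spinous-like, 64.5 ± 43.2 UMIs per 10000 (SD, n = 3), FABP4-led, 18.5 ± 1.83, mitotic-like, 6.70 ± 2.96, JCHAIN-led, 3.99 ± 1.22, basal-like, 1.94 ± 0.333, ATP6-led, 1.46 ± 0.500, and CXCL3-led, 0.605 ± 0.234. Neighbours whose calf values overlapped were mitotic-like and JCHAIN-led, and basal-like and ATP6-led cells. The CXCL3-led level, 0.727, 0.753 and 0.335 in calves 1, 2 and 3, stood beside 0.515, 0.745 and 0.137 in the endothelial cells of the same calves, a difference that was not tested.

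FABP4-led cells, which kept basal markers (a sum of 127, 262 and 148 UMIs per 10000), held 182, 128 and 139 UMIs per 10000 of S100A12 and 20.4, 18.4 and 16.7 of S100A8, but only 4.14, 4.73 and 2.77 of S100A9. S100A2 was as high there as in spinous-like cells, at 75.1, 88.2 and 80.6, and S100A4 was not reduced, at 33.1, 23.4 and 39.6. Basal-like clusters also differed among themselves: mean S100A12 ran from 3.83 ± 0.577 UMIs per 10000 in a cluster led by RGS4 and PLAC8 to 87.8 ± 7.59 in one led by the replication genes UHRF1 and MCM3. The values of the 3 calves in these clusters did not overlap. Mean S100A2 went with it, from 13.6 ± 3.54 to 58.2 ± 21.0 in the same clusters, whereas mean S100A14 went from 2.16 ± 1.29 to 1.51 ± 0.986. S100A14 was lower in the UHRF1-led cluster of each calf, with 2.60, 1.23 and 0.691 in calves 1, 2 and 3. The RGS4-led cluster had 3.58, 1.85 and 1.05, and this difference was not tested.

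Calprotectin needs both chains, and the UMIs of S100A8 and S100A9 did not keep a fixed ratio. There were 1.95, 1.69 and 1.76 UMIs of S100A8 per UMI of S100A9 in the spinous-like cells of calves 1, 2 and 3. The ratio was 1.52, 1.35 and 2.50 in basal-like, 2.56, 2.56 and 4.88 in mitotic-like and 4.92, 3.88 and 6.02 in FABP4-led cells. CXCL3-led cells had 0.507, 0.836 and 0.293, with more S100A9 than S100A8 in every calf, at levels of S100A9 of 1.43, 0.900 and 1.14 UMIs per 10000. Gated immune cells had a ratio of 1.05 in calf 2 and 0.804 in calf 3. In each calf the ratio was higher in FABP4-led than in mitotic-like, basal-like or spinous-like cells and lower in CXCL3-led cells than in any of these. JCHAIN-led cells, few in number, had 7.25, 2.38 and 10.8, above the FABP4-led cells in calves 1 and 3 and below them in calf 2. The comparison of ratios was chosen after the levels were seen and was not tested.

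**Figure D3:**
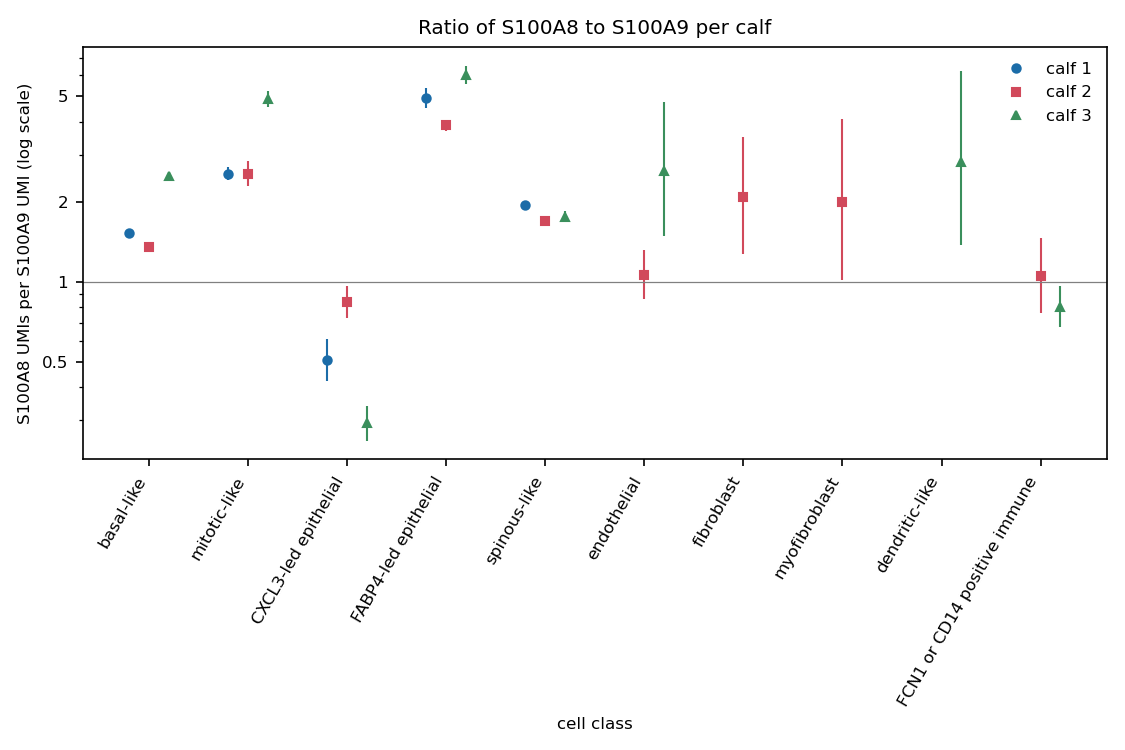
UMIs of S100A8 per UMI of S100A9 (log scale) by cell class, 1 point per calf where both genes had at least 10 UMIs; bars are exact 95% intervals for counting error alone, and the grey line marks a ratio of 1. FABP4-led cells lie above the basal-like, spinous-like and mitotic-like cells in each calf, and CXCL3-led cells lie below a ratio of 1.

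Co-expression was counted in thinned cells, against the number of cells that independence of the genes within a calf and class would give. In basal-like cells 214, 268 and 163 cells had both S100A8 and S100A9, where independence gave 132, 147 and 70.9, ratios of 1.63, 1.83 and 2.30. In spinous-like cells both genes were so common that little room was left: 134, 273 and 67 cells had both, where independence gave 125, 270 and 55.0. Across spinous-like cells the Spearman correlation of the pair was 0.53, 0.72 and 0.51 (215, 319 and 158 cells, which share a library). Of spinous-like cells with S100A9, 97.1%, 97.2% and 81.7% also had S100A8.

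All 3 calgranulins were found together in 62.3%, 85.6% and 42.4% of spinous-like cells, in 6.90%, 4.03% and 2.73% of basal-like cells, and in 0, 3 and 1 endothelial cells of 69, 492 and 600. S100A12 without the other calgranulins was the commonest state of basal-like cells, at 47.7%, 54.6% and 52.5%. In basal-like cells S100A8 and S100A12 were found together 1.17, 1.15 and 1.31 times as often as independence gave, and S100A12 and S100A2, both abundant, had Spearman correlations from 0.531 to 0.588 across cells.

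S100A4 stood apart from the calgranulins within the spinous-like layer. S100A8 and S100A4 were found together in 107, 114 and 67 spinous-like cells, where independence gave 112, 119 and 77.2, and their Spearman correlation was -0.447, -0.338 and -0.390. In basal-like cells the same pair had 0.0582, 0.0649 and 0.204. S100A10 and S100A11, both partners of annexins, were found together 1.02, 1.04 and 1.03 times as often as independence gave in basal-like cells, and S100A14 and S100A16, neighbours in the genome, 1.09, 1.05 and 1.04 times.

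In the RefSeq gene table of a later assembly, ARS-UCD2.0, all 9 members lie on chromosome 3. S100A8, S100A12 and S100A9 follow each other without another gene between them, S100A14, S100A16 and S100A2 are also adjacent and S100A3 separates them from S100A4, and S100A11 lies beside S100A10.

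Against endothelial cells, the epithelium as a whole had more of most members. S100A12 had 59.1, 56.9 and 39.2 UMIs per 10000 in epithelial and 4.36, 3.52 and 1.04 in endothelial cells (log2 difference 4.79, SE 0.48, adjusted p = 1.28e-07). S100A2 had 35.6, 43.0 and 30.4 against 2.85, 2.34 and 0.930 (log2 difference 4.71, SE 0.48, adjusted p = 1.55e-07). S100A8, S100A9, S100A4 and S100A14 were higher too, by 4.28, 3.81, 2.15 and 1.64. These 6 of 9 members stand beside 22.5% of 10239 genes that were higher, and the members' median log2 difference was 2.15, that of all genes -0.02.

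S100A16 was the exception, with 2.69, 2.36 and 1.10 UMIs per 10000 in epithelial and 5.80, 6.61 and 4.31 in endothelial cells. Each endothelial value was above each epithelial one (log2 difference -1.21, SE 0.27, adjusted p = 0.00115). It was the 1 member lower in the epithelium, beside 24.9% of genes, and it was not called without the block (log2 difference -1.09, adjusted p = 0.0916). S100A10 and S100A11 overlapped and did not pass, at adjusted p = 0.743 and 0.790. S100A10 had 9.29, 9.49 and 7.71 UMIs per 10000 in epithelial and 10.9, 11.4 and 8.67 in endothelial cells. Its level was lower in the epithelium of each calf, although its log2 difference from the rescaled sums was 0.11. Of the other S100 genes, S100A7 was higher in epithelial cells and S100A13 and S100B were higher in endothelial cells, where S100B, best known from glia, had 1.19, 1.53 and 3.25 UMIs per 10000.

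Fibroblasts and myofibroblasts were few in calf 1, with 22 cells, in which the 8 epithelial markers summed to 100.0 UMIs per 10000 beside 19.2 and 13.2 in calves 2 and 3. The part of that in the values of calf 1 was not tested. S100A8 had 2.49, 1.02 and 0.199 UMIs per 10000 in these cells, against 6.03, 9.04 and 3.50 in epithelial cells (log2 difference 3.37, SE 0.37, adjusted p = 8.52e-07). Higher in the epithelium were 7 of 9 members, beside 18.2% of 10239 genes, and 0 of 9 were lower, beside 19.7%, with a median log2 difference of 1.59 for the members and 0.03 for all genes.

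S100A4, often used as a fibroblast marker, did not pass (log2 difference 0.06, SE 0.33, adjusted p = 0.924). It had 28.5, 16.3 and 19.0 UMIs per 10000 in epithelial cells and 24.6, 29.1 and 24.5 in fibroblasts and myofibroblasts. The stromal level was thus higher in calves 2 and 3 and lower in calf 1, whose few stromal cells had the most epithelial marker RNA. The sign of the log2 difference turned under 4 alternatives. Within the stroma S100A4 was higher in myofibroblasts than in fibroblasts of calf 3, 39.4 beside 8.77 UMIs per 10000, but not in calf 2, with 27.0 beside 31.0. S100A11 was the other member that did not pass, with 13.7, 15.1 and 13.1 in the stroma, above the epithelial value of each calf (log2 difference -0.38, adjusted p = 0.307).

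Against all immune cells, S100A2, S100A14 and S100A16 had the largest differences. S100A14 had 0.199, 0.207 and 0.0551 UMIs per 10000 in immune cells (log2 difference 3.95, SE 0.34, adjusted p = 2.48e-08) and S100A16 had 0, 0.391 and 0.0991 (3.52, SE 0.37, adjusted p = 4.04e-07). S100A2 had 1.79, 5.12 and 1.02 (4.21, SE 0.47, adjusted p = 8.79e-07).

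The calgranulins were less far apart: the log2 difference was 3.39 for S100A12, 2.14 for S100A8 and 1.03 for S100A9 (adjusted p = 6.27e-06, 3.92e-05 and 0.0238). Higher in the epithelium were 6 of 9 members, beside 24.6% of genes, and 0 were lower, beside 23.0%, and the median log2 difference was 2.14 for the members and 0.08 for all genes. All 10 neutrophil and monocyte genes tested were lower in the epithelium. The call of S100A9 was lost without the block (log2 difference 1.29, adjusted p = 0.216), in DESeq2 (log2 difference 1.04) and without calf 2 (log2 difference 0.79, adjusted p = 0.119), so in the first and second of these the difference itself was no smaller. S100A4, S100A10 and S100A11 did not pass. S100A11 was higher in the immune cells of all 3 calves, with 23.5, 17.6 and 6.64 UMIs per 10000 (log2 difference -0.46, adjusted p = 0.180), and S100A10 was called when calf 1, with its 10 immune cells, was left out (log2 difference 0.71, adjusted p = 0.0284).

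Within the immune cells the FCN1 or CD14 positive ones had the higher calgranulin levels. Calf 1 had too few for a sum, so the comparison rests on calves 2 and 3, with 1 residual degree of freedom, and its small p values lean on a spread estimated over all genes. S100A9 had 7.95 and 9.81 UMIs per 10000 in the positive cells of calves 2 and 3 and 0.591 and 0.0748 in the other immune cells (log2 difference 5.59, SE 0.37, adjusted p = 2.77e-35). S100A8 had 8.36 and 7.89 against 1.03 and 0.165 (4.38, SE 0.33, adjusted p = 4.41e-28), and S100A12 had 27.4 and 14.7 against 4.91 and 1.39 (2.90, SE 0.24, adjusted p = 5.03e-24). In both calves each of the 3 was several times higher in the positive cells, and the values of the classes did not overlap. Few cells carried these values: in calf 3 the median of 51 thinned positive cells was 0 UMIs for S100A8, S100A9 and S100A12, and the highest cell held 72, 67 and 66 of them. Positive cells of the APOE-led cluster of calf 3 had 0.0785 UMIs per 10000 of S100A8. The other immune cells of calf 3, being many more, held 464 UMIs of S100A12 where the positive cells held 428.

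S100A11 was higher as well (log2 difference 1.08, adjusted p = 3.75e-05), and so was S100A4 (0.62, adjusted p = 0.0363), though S100A4 of calf 3 was lower in positive cells, 11.3, than in the negative cells of calf 2, 21.0. In all 5 of the 8 members tested were higher, beside 6.91% of 4069 genes, and 0 were lower, beside 3.66%, with a median log2 difference of 1.10 for the members and -0.04 for all genes. Of the neutrophil and monocyte genes 8 of 10 tested were higher, among them FCN1 and CD14, which define the gate. S100A14 had too few counts, and S100A2, S100A10 and S100A16 did not pass. Without the block only S100A8 and S100A9 were called. The log2 differences of S100A12, S100A11 and S100A4 were then 2.70, 0.93 and 0.58 (adjusted p = 0.0724, 0.497 and 0.844), little smaller than with it. Without the dendritic-like cells only S100A9 and S100A12 were called, with S100A8 at a log2 difference of 4.13 and adjusted p = 0.0563. The call of S100A4 was lost under 6 alternatives and that of S100A11 under 3, while S100A16 was called with doublets kept (adjusted p = 0.0415).

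Epithelial RNA was present in these immune cells too: the 8 epithelial markers summed to 23.4 and 22.1 UMIs per 10000 in the positive cells of calves 2 and 3 and to 32.8 and 7.46 in the other immune cells. The part of that RNA in the calgranulin values was not tested. After thinning, S100A8 was detected in 7 of 16 positive cells of calf 2 and 11 of 51 of calf 3, or 43.8% and 21.6%, beside 54 of 492 and 9 of 600 endothelial cells and 15.4% and 5.33% of T or NK-like cells. In calf 2 the interval of the positive cells, 19.8 to 70.1%, overlaps that of its 13 T or NK-like cells. S100A9 was detected in 50.0% and 17.6% of positive cells, beside 7.69% and 2.37% of T or NK-like cells, again with intervals that overlap in calf 2. For S100A12 the shares were 68.8% and 37.3%, and 61.5% and 29.0% in T or NK-like cells, with intervals that overlap in both calves, so these shares do not separate the classes. Without thinning, S100A8 was detected in 56.2% and 28.3% of positive cells, at a median depth of 5653 and 4820 UMIs, and in 17.4% and 6.81% of T or NK-like cells, at 2082 and 2443.

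Immune clusters differed too, although they are no separate view of the gate. In the FCN1-led cluster 33 of 36 cells were positive, and in the APOE-led cluster 26 of 59. The FCN1-led cluster of calf 3 held 226 UMIs of S100A8, where the gated cells of that calf held 229. The FCN1-led cluster, with 3, 8 and 25 cells in calves 1, 2 and 3, had the highest calgranulin levels of the immune clusters: S100A9 was at 5.10, 13.7 and 36.6 UMIs per 10000 and S100A8 at 3.25, 12.5 and 29.2. The APOE-led cluster of 59 cells was alike in C1QA, with 33.3 UMIs per 10000 in calf 3 beside 35.2 in the FCN1-led cluster, but had 0.0663 of S100A8 and of S100A9 there, and S100A9 was detected in 0 of 52 thinned cells (upper Clopper-Pearson limit of the detected share 6.85%), with 2 UMIs before thinning. S100A11 differed less between the FCN1-led and APOE-led clusters, at 25.1 and 16.5 UMIs per 10000 in calf 3. Both chains of calprotectin were found together in 7 of 16 and 8 of 51 positive cells, where independence gave 3.50 and 1.94. The positive cells pool clusters that differed in both chains, which independence over all of them does not allow for.

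Dendritic-like cells had 0.316 and 0.156 UMIs per 10000 of S100A8 in calves 2 and 3 and T or NK-like cells had 1.79 and 0.266, beside 0.745 and 0.137 in endothelial cells. S100A4 was the most abundant member in T or NK-like cells, at 37.8 and 22.6 UMIs per 10000, and was low in the dendritic-like cells of calf 3, at 1.91, with 15.7 in calf 2.

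Even in the calf with the most immune cells, the epithelium held nearly all calgranulin transcripts. Epithelial cells had 99.8%, 99.4% and 98.6% of the S100A8 UMIs of kept cells in calves 1, 2 and 3, and 99.8%, 99.1% and 96.4% of the S100A9 UMIs. Gated immune cells had 0.0230%, 0.134% and 0.945% of the S100A8 UMIs and 0.0712%, 0.222% and 3.02% of those of S100A9. By number, epithelial cells were 97.7%, 89.9% and 80.9% of the kept cells of calves 1, 2 and 3. Gated immune cells were 0.106%, 0.164% and 0.625%. S100A16, lower in epithelial than in endothelial cells, still had 98.3%, 90.3% and 82.8% of its UMIs in epithelial cells. A share of UMIs therefore has to be read beside the size of the class. Cells lost in dissociation are not in these shares.

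Applied inside the spinous-like and basal-like layers, the same gate marked cells richer in calgranulins. Spinous-like cells with a CD14 UMI, 44, 88 and 11 in calves 1, 2 and 3, had 88.4, 156 and 100.4 UMIs per 10000 of S100A8, beside 34.2, 87.9 and 25.8 in the other spinous-like cells. For S100A9 the values were 56.5, 108 and 114 beside 13.1, 42.7 and 10.5. None of the spinous-like cells had FCN1. Basal-like cells were 1033 of the 1630 positive epithelial barcodes. Their S100A8 was 2.79, 7.14 and 2.75 in positive cells of calves 1, 2 and 3, beside 2.24, 1.52 and 1.68 in the rest. In endothelial cells S100A8 went the other way, with 0.262, 0.297 and 0.0186 UMIs per 10000 of S100A8 in 11, 87 and 83 CD14 positive cells beside 0.581, 0.871 and 0.159 in the rest, while S100A9 was higher in the positive cells of calf 1, 0.262 beside 0.205, and lower in those of calves 2 and 3. This split was chosen after the gate was seen to take epithelial cells, and the part of depth in it was not tested.

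Genes outside the family were ranked by the Pearson correlation of log levels over 38 sums of a class and calf, from 16 classes and 3515 genes. The sums share libraries and depth, and neighbouring classes share cell types. Nearest to S100A8 were GJB2 (r = 0.871), COX8B (0.856) and ETHE1 (0.854), and nearest to S100A9 were GJB2 (0.859), TGM3 (0.847) and CSTB (0.826). S100A12 was nearest to COX8B (0.935), ETHE1 (0.915) and ACSF2 (0.909). S100A2 was followed closely by ENSBTAG00000036116, DAPL1 and CHCHD10 (0.965, 0.963 and 0.960), and S100A4 by none: its nearest, HYPK, UQCRH and SERPINE2, had 0.633, 0.631 and 0.608. Among the members themselves the correlation was 0.956 for S100A8 and S100A12, 0.914 for S100A8 and S100A9, 0.775 for S100A14 and S100A16, and 0.287 for S100A8 and S100A4.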

How the data were processed

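The counts are UMIs per gene and barcode as deposited, which the authors made with Cell Ranger 3.1.0 on the cattle assembly ARS-UCD1.2, per the processing notes of the submitters and the paper. Members are the genes whose symbol in the gene lists is one of the 9 names. The members and the lists were chosen with earlier results of these data known. Barcodes needed 500 to 4000 genes, no more than 50000 UMIs and a mitochondrial share up to 40%, and doublets were removed at 0.8% per 1000 cells. The 2000 most variable genes without S100 genes went through principal components, Harmony and Leiden clustering (resolution 0.1, then 0.8). The naming rule for clusters was adjusted over several versions after the clusters were seen, without looking at S100 values. Sums of at least 10 cells were tested in edgeR by quasi-likelihood with TMM and Benjamini-Hochberg adjustment. The scripts were tested on simulated data. Versions were Python 3.11.15, numpy 2.4.6, scipy 1.17.1, pandas 2.3.3, scikit-learn 1.9.0, leidenalg 0.10.2, R 4.3.3, edgeR 4.0.16 and DESeq2 1.42.0.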

Additional observations from a re-analysis of the deposited data

How the results depend on the processing

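A count was taken as unchanged within a factor of 1.5, a log2 difference when sign and call were kept, and other values within the SD over calves. By that rule 44 of 47 member counts, 73 of 94 gene counts, 381 of 412 log2 differences, 133 of 138 levels, 160 of 207 shares and 17 of 24 co-expression ratios were unchanged under the alternatives. Of the log2 differences 20 lost their call, some without being smaller, 3 gained one and 8 changed sign. For each difference the cause was not tested.

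Between the layers, without the block 4 members, 586 genes higher and 511 lower were called, and with clusters of each calf alone 852 and 730. Leaving out a calf gave 837 to 1564 higher and 959 to 1686 lower genes.

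Leaving out a calf gave 1290 to 2352 higher and 1512 to 2667 lower genes against endothelial cells, where the log2 difference of S100A11 ran from -0.000277 to 0.39. Against fibroblasts and myofibroblasts it gave 909 to 1886 and 1122 to 2243, with S100A4 from -0.16 to 0.31. The log2 difference of S100A4 was -0.0616 in DESeq2, -0.0650 with RLE size factors and -0.13 with clusters of each calf alone. Against immune cells it gave 1042 to 2633 and 1141 to 2667, with S100A4 from -0.21 to 0.69.

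Among immune cells, without the block 2 members, 70 genes higher and 24 lower were called. DESeq2 called 110 and 16 genes, clusters of each calf alone 65 lower, and at least 2 UMIs of FCN1 and CD14 92 lower. Without dendritic-like cells 2 members and 85 and 48 genes were called. The log2 difference of S100A2 was 0.000878 in DESeq2 and 0.00394 with RLE size factors. This comparison was not run without calf 2 or calf 3, as 1 calf would be left.

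The S100A8 level of gated immune cells was 7.05 with doublets kept. In spinous-like cells the share with S100A9 was 88.6% without thinning and that with S100A12 was 99.4% at 1000 UMIs. The observed to expected ratio of S100A8 and S100A9 in basal-like cells was 2.27 at 1000 UMIs.

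The calves are 3, of one breed and age, and calf 1 gave 10 immune cells. Clusters were named from transcripts, without position in the tissue, and calf 3 had few cells with KRTDAP. Free RNA was neither measured nor removed. Transcripts are not protein, so calprotectin itself was not measured. Neutrophils were not found as a class, and cells lost in dissociation were not counted.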
